A study of Mus musculus with 18 samples.

Results

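Kit, Flt3, Cd34 and Il7r, 4 surface receptor genes used to sort blood progenitors, were taken by symbol from the expression tables of LSK and CMPs. They were 4 of 19780 genes listed for LSK and 4 of 18428 listed for CMPs. LSK (Lin−Sca-1+c-Kit+ cells) hold the haematopoietic stem cells and multipotent progenitors of the bone marrow, and CMPs are the common myeloid progenitors that give rise to granulocytes, monocytes, erythrocytes and platelets. RNA was sequenced in 18 samples of female mice, 12 of LSK and 6 of CMPs, with 3 samples per group. F1-P were NZBW/F1 mice, a hybrid of the NZB and NZW strains in which lupus arises spontaneously, at 12 weeks and before disease. F1-L were NZBW/F1 mice with lupus at 28 to 36 weeks. B6-Y and B6-O were C57BL/6 mice of the same 2 age ranges, which carry none of the lupus background, and were profiled in LSK. CMPs were profiled in F1-P and F1-L. Disease and age differ together between F1-P and F1-L and cannot be told apart within NZBW/F1 mice, and each strain was 1 genetic background with no transgene.

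The cells were sorted as negative for CD11b, Gr-1, Ter119, B220 and CD16/32, a panel with no T cell or plasma cell marker, and positive for c-Kit, the product of Kit. CMPs were in addition selected for CD34, so that the level of Kit in both populations and that of Cd34 in CMPs were set in part by the gate, while Flt3 and Il7r were not part of either gate. The methods also list Sca-1 as positive in the CMP gate. Ly6a, which encodes Sca-1, ranged from 1.14 to 6.70 in CMPs and from 293.4 to 878.7 in LSK of the same strain, so this part of the stated gate was not visible in the RNA. LSK of C57BL/6 mice had Ly6a at 35.5 to 112.9. All values are scaled CPM, that is CPM, the usual measure of reads per library size, with that size multiplied by a scaling factor of the authors, and the LSK and CMP tables were scaled separately.

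KIT and FLT3 are receptor tyrosine kinases for stem cell factor and FLT3 ligand. KIT is carried by stem cells and most early progenitors, and FLT3 appears as multipotent progenitors lose self-renewal and is highest in lymphoid-primed cells. The interleukin-7 receptor alpha chain, the product of Il7r, pairs with the common gamma chain and marks common lymphoid progenitors and their B and T cell progeny. CD34 is a sialomucin that in the mouse is low on long-term stem cells and rises on short-term stem cells and multipotent progenitors.

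Among the 4 receptor genes, LSK of C57BL/6 and NZBW/F1 mice differed most in Cd34 and Flt3. Cd34 was 2.51-fold lower and Flt3 1.99-fold lower in NZBW/F1 over both ages, and both were called, which means an adjusted p no higher than 0.05 in limma together with a change of more than 1.5-fold. Kit was lower by 1.39-fold and Il7r higher by 1.30-fold, and neither was called. Between older and younger mice, 0 of the 4 genes were called in either strain or over both (0.0279% of all genes tested in NZBW/F1, 0% in C57BL/6 and 1.66% over both), with means that were lower in older mice for Flt3 and Il7r in both strains and higher for Kit and Cd34. In CMPs, limma called 0 of the 4 genes between F1-L and F1-P, against 0.00774% of all genes. In whole sorted samples, fewer cells that carry a transcript and less of it per cell cannot be told apart.

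**Figure D1:**
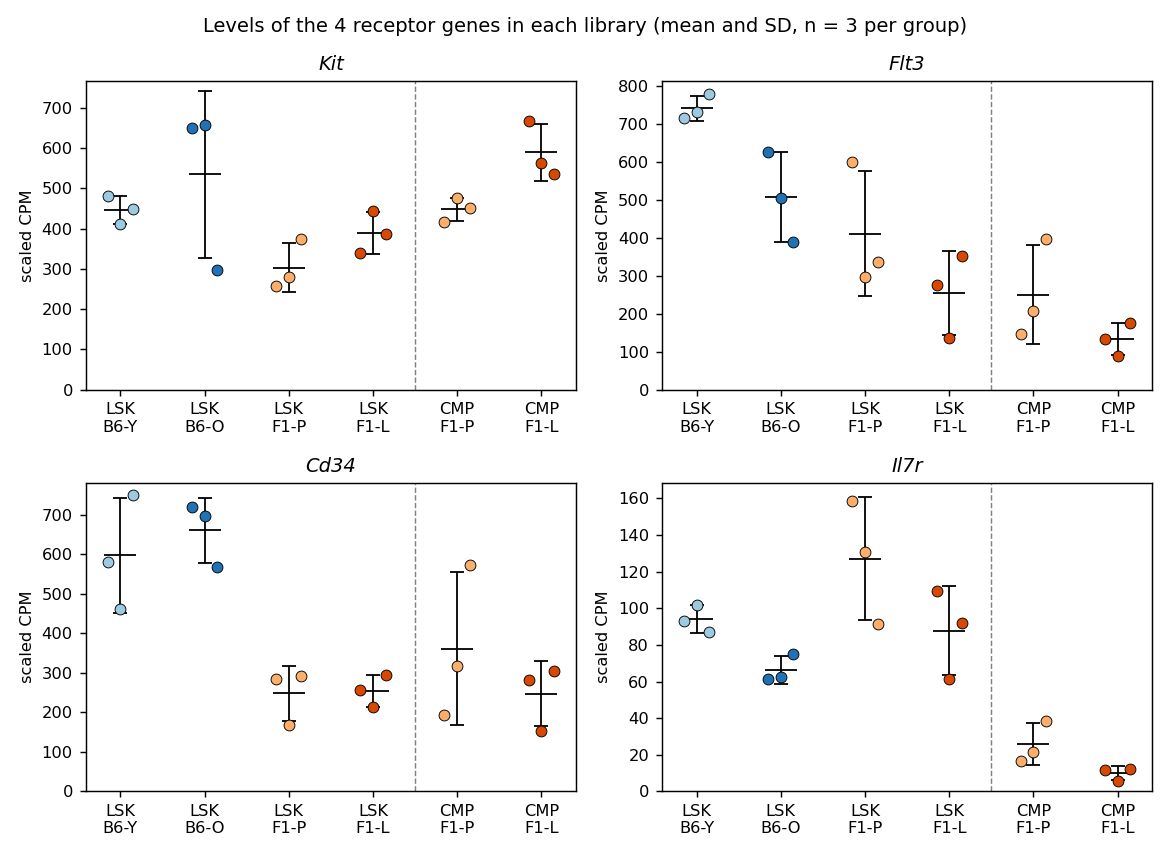
Scaled CPM of Kit, Flt3, Cd34 and Il7r on the vertical axes for each library (points) of the 4 LSK and 2 CMP groups, with the mean and SD of each group (n = 3); the dashed line parts the LSK and CMP tables, which were scaled separately. All 6 NZBW/F1 LSK libraries lay below all 6 C57BL/6 libraries for Cd34, and Il7r was below 40 in every CMP library.

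Cd34 (ENSMUSG00000016494, chr1:194938819-194961279 on the plus strand, GRCm38, with 7290 exonic bases) had the largest difference of the 4 receptor genes between the strains. Its value in LSK was 579.8, 461.5 and 750.9 in B6-Y and 718.6, 697.2 and 566.5 in B6-O. It was 284.3, 168.5 and 291.2 in F1-P and 256.7, 213.7 and 294.6 in F1-L. The highest NZBW/F1 library, an F1-L library at 294.6, was well below the lowest C57BL/6 library at 461.5, so the strains did not overlap. Over both ages the mean was 251.5 in NZBW/F1 and 629.1 in C57BL/6, a log2 difference of −1.33 (SE 0.171, 95% interval −1.70 to −0.95, limma's adjusted p = 0.000127), lower in 6 of 6 libraries. Of all 15084 genes tested in this comparison 19.0% were called, 7.05% as lower in NZBW/F1, and 2 of the 4 receptor genes were, both lower. The count was 2 as well in the likelihood ratio test of edgeR (22.4% of all genes called), its quasi-likelihood test (21.1%) and DESeq2 (21.9%). Cd34 was the 1 gene of the 4 whose strains did not overlap, against 15.3% of all genes. The difference was −1.28 (SE 0.265, limma's adjusted p = 0.0143) between F1-P and B6-Y and −1.37 (SE 0.186, adjusted p = 0.00435) between F1-L and B6-O. With 1 library left out, the difference between F1-P and B6-Y ran from −1.45 to −1.02. Its call was lost without B6-Y replicate 1 (limma's adjusted p = 0.0504).

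Flt3 (ENSMUSG00000042817, chr5:147330741-147400489 on the minus strand, 6176 exonic bases) was highest in young C57BL/6 LSK, at 715.2, 731.7 and 778.5 in B6-Y, and was 626.1, 505.7 and 388.2 in B6-O. In NZBW/F1 LSK it was 598.7, 297.8 and 337.2 in F1-P and 275.8, 136.5 and 352.8 in F1-L. F1-P replicate 1 stood apart from the other 5 NZBW/F1 libraries and lay within the range of B6-O, and the other 5 were below every C57BL/6 library. Over both ages the log2 difference was −0.99 (SE 0.242, 95% interval −1.52 to −0.46, limma's adjusted p = 0.00901), with means of 333.1 and 624.3. At the younger age Flt3 was called lower in F1-P than in B6-Y with little room to spare, at a log2 difference of −0.92 (SE 0.263, limma's adjusted p = 0.0492). That call was lost under 5 of the alternative settings, with an adjusted p of 0.0821 in the quasi-likelihood test of edgeR, and in 5 of the 6 fits that left out 1 library. At the older age the groups did not overlap either, but the difference of −1.07 (SE 0.363) was not called in limma (adjusted p = 0.11) and was called in DESeq2 (adjusted p = 0.0462).

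The promoters of Cd34 and Flt3 were read from RefSeq (GRCm38.p6) as the 250 bases before the start of transcription. They are shown because these 2 of the 4 genes were called between the strains. All 4 genes had an entry. Capitals mark matches on either strand to 5 motifs of blood cell factors, GATA (GATAA), RUNX (TGTGGT), E-box (CANNTG), ETS (CAGGAAG) and MYB (AACNGTT).
Cd34, chr1:194938571-194938820, plus strand: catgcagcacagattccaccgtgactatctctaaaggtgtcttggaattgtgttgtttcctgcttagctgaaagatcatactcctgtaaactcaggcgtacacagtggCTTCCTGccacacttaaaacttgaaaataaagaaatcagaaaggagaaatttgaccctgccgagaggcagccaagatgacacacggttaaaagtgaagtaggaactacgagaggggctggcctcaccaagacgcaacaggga
Flt3, chr5:147400490-147400739, minus strand: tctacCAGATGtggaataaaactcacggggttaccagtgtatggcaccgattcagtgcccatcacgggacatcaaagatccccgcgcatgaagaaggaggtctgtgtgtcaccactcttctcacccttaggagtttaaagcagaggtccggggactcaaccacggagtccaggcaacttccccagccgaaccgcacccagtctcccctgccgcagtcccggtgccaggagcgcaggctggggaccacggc
In these windows Cd34 held 1 match, to the ETS letters, starting 142 bases before the start, and Flt3 held 1 match, to the E-box letters, starting 245 bases before it. The ETS letters were found in 10.5% and the E-box letters in 66.0% of 27025 promoters of the same length. The window of Il7r held 3 E-box matches and 1 ETS match, and that of Kit held 0 matches to the 5 motifs. These are the C57BL/6J reference sequences, and the NZB and NZW sequences were not used here.

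Kit (ENSMUSG00000005672, chr5:75574916-75656722 on the plus strand, 8911 exonic bases) was at 480.7, 410.2 and 448.8 in B6-Y LSK and at 650.0, 657.4 and 296.0 in B6-O. It was at 256.7, 279.5 and 373.5 in F1-P and at 339.8, 442.4 and 385.7 in F1-L. B6-O replicate 3 was the lowest C57BL/6 library, less than the other B6-O libraries by a wide margin and below 4 of the 6 NZBW/F1 libraries, and the groups of the younger mice did not overlap. Over both ages Kit was lower in NZBW/F1 by a log2 difference of −0.47 (SE 0.196, 95% interval −0.90 to −0.05), which was not called (limma's adjusted p = 0.088). Without B6-O replicate 3 the difference was −0.66 and was called (adjusted p = 0.00152), and between F1-L and B6-O it went from −0.37 (SE 0.327, adjusted p = 0.49) to −0.75 (adjusted p = 0.016). Between F1-P and B6-Y the difference was −0.57 (SE 0.177), with an adjusted p of 0.063 in limma and 0.035 in DESeq2, where its size did not reach 1.5-fold.

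Il7r (ENSMUSG00000003882, chr15:9505788-9530176 on the minus strand, 4663 exonic bases) was the receptor gene that was not lower in NZBW/F1. It was at 93.3, 102.0 and 87.2 in B6-Y LSK, 61.3, 62.6 and 75.3 in B6-O, 158.8, 130.9 and 91.7 in F1-P and 109.7, 61.6 and 91.8 in F1-L. The strains overlapped at both ages, with 2 of 3 NZBW/F1 libraries above all C57BL/6 libraries of that age. Over both ages the log2 difference was 0.38 (SE 0.159, 95% interval 0.03 to 0.73), with an adjusted p of 0.0921 in limma and 0.0271 in DESeq2, where its size did not reach 1.5-fold. The difference was 0.40 (SE 0.2, adjusted p = 0.226) at the younger age and 0.36 (SE 0.221, adjusted p = 0.327) at the older.

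Between F1-P and B6-Y, 2 of the 4 genes were called, both lower, against 16.2% of 14380 genes tested (6.18% lower). The likelihood ratio test of edgeR and DESeq2 also called 2 of the 4 (19.1% and 19.6% of all genes) and the quasi-likelihood test 1 (15.9%). The groups did not overlap for 3 of the 4, against 35.5% of all genes. Between F1-L and B6-O, 1 of the 4 was called, and lower, against 11.6% of 14381 genes (3.75% lower). Both edgeR tests called 1 as well (15.2% of all genes in the likelihood ratio and 10.8% in the quasi-likelihood test) and DESeq2 2 (15.8%). The groups did not overlap for 2 of the 4, against 37.4% of all genes. These comparisons share no library with each other, and both enter the comparison over both ages. Reads from NZB and NZW alleles were aligned to the C57BL/6 reference, and how far sequence differences bear on a strain difference was not tested. The library kit does not mark strand. Flt3 overlaps an antisense gene, Gm26597, which was at 0.239 to 1.08 in LSK, and Cd34 overlaps Gm16897, at 3.28 to 14.7, and reads that both genes of a pair share cannot be told apart.

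**Figure D2:**
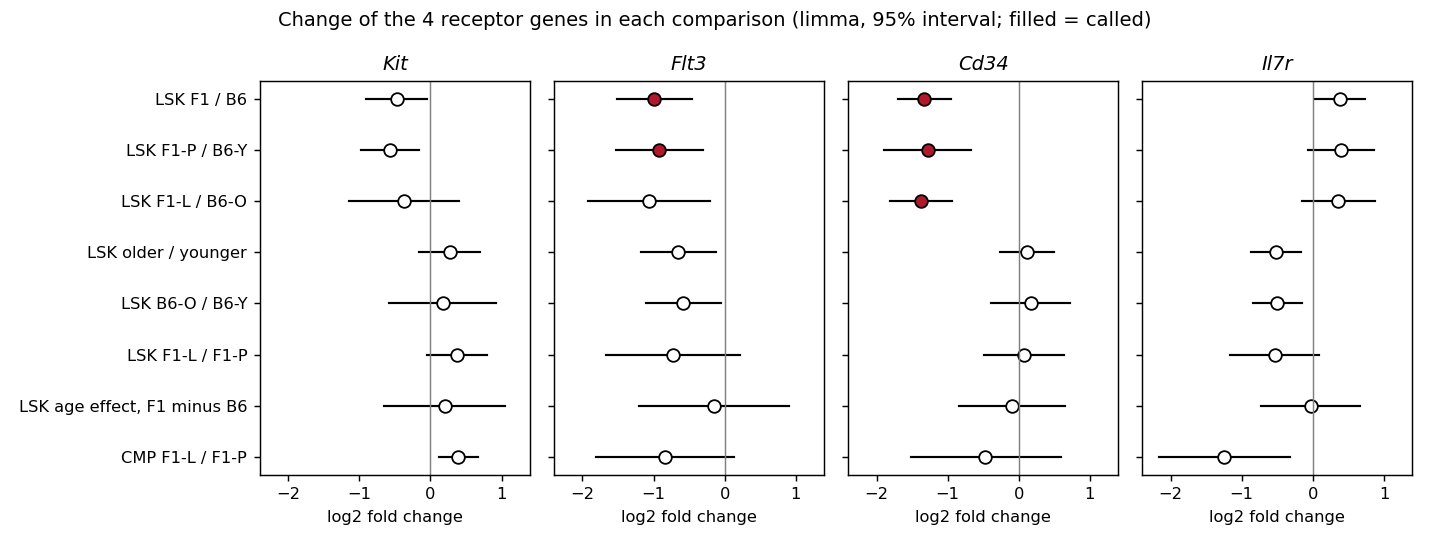
Log2 fold change (points) with its 95% interval (lines) of each receptor gene in the 8 comparisons, from limma on log2(scaled CPM + 1); filled points were called. Cd34 was called lower in NZBW/F1 (F1) than in C57BL/6 (B6) LSK at each age and over both, at −1.33 over both, and Flt3 at the younger age and over both, while no point of the age comparisons is filled.

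Older against younger mice was asked in each strain, to set the change from F1-P to F1-L beside that of C57BL/6 mice over the same ages. Flt3 had a lower mean in older LSK of both strains. Its mean was 741.8 ± 32.8 (SD, n = 3) in B6-Y and 506.7 ± 119.0 in B6-O with no overlap and a log2 difference of −0.58 (SE 0.223, limma's adjusted p = 0.666). In NZBW/F1 the means were 411.2 ± 163.5 in F1-P and 255.0 ± 109.6 in F1-L, with overlapping groups and a log2 difference of −0.72 (SE 0.399, limma's adjusted p = 0.51). This NZBW/F1 difference ran from −1.01 to −0.33 with 1 library left out. Over both strains the difference was −0.65 (SE 0.242, 95% interval −1.18 to −0.12, limma's adjusted p = 0.222).
Il7r had a lower mean in older LSK of each strain. This was 94.2 ± 7.44 in B6-Y and 66.4 ± 7.71 in B6-O with no overlap and a log2 difference of −0.50 (SE 0.145, limma's adjusted p = 0.449). In NZBW/F1 mice it was 127.1 ± 33.7 before disease and 87.7 ± 24.3 with lupus, with overlapping groups and a log2 difference of −0.53 (SE 0.265, limma's adjusted p = 0.464). Over both strains the difference of −0.52 (SE 0.159) was not called in limma (adjusted p = 0.137). In DESeq2 its adjusted p was 0.0312 with a size under 1.5-fold.
Kit and Cd34 did not share this direction. Kit differed by 0.37 on the log2 scale (SE 0.178, limma's adjusted p = 0.448) from F1-P to F1-L. From B6-Y to B6-O it differed by 0.17 (SE 0.322, adjusted p = 0.891). With 1 library left out the latter ran from −0.02 to 0.55, the highest being without B6-O replicate 3. Cd34 differed by 0.07 (SE 0.236, adjusted p = 0.945) in NZBW/F1 and 0.17 (SE 0.238, adjusted p = 0.867) in C57BL/6. With 1 library left out these ran from −0.19 to 0.21 and from −0.01 to 0.34, so neither sign is settled.

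Between F1-L and F1-P LSK, limma called 0 of the 4 genes against 0.0279% of 14332 genes tested, and 0 of the 4 had an unadjusted p below 0.05 against 12.8%. The other tools also called 0 of the 4, against 4.58% of all genes in the likelihood ratio test of edgeR, 0.0209% in its quasi-likelihood test and 5.12% in DESeq2. The groups overlapped for all 4, and did not for 17.7% of all genes.
Between B6-O and B6-Y, limma and the quasi-likelihood test called 0 of the 4 and 0% of 14005 genes, the likelihood ratio test 0 of the 4 against 0.814% and DESeq2 0 against 1.48%. Flt3 and Il7r had an unadjusted p below 0.05 in limma, as did 6.62% of all genes, and did not overlap between the groups, as 11.3% did not.
Over both strains limma called 0 of the 4 against 1.66% of 15084 genes, the likelihood ratio test 0 against 4.28%, the quasi-likelihood test 0 against 1.74% and DESeq2 0 against 4.39%. Flt3 and Il7r had an unadjusted p below 0.05, against 14.8% of all genes, and 0 of the 4 did not overlap, against 0.961%.
Whether age changed the genes to a different extent in the strains was tested as an interaction, in which every tool called 0 of the 4 genes, against 0% of 15084 genes in limma and the quasi-likelihood test, 0.0663% in the likelihood ratio test and 0.192% in DESeq2. The difference between the age effects, NZBW/F1 minus C57BL/6, was 0.20 for Kit (95% interval −0.66 to 1.05) and −0.15 for Flt3 (−1.21 to 0.91). It was −0.10 for Cd34 (−0.84 to 0.65) and −0.03 for Il7r (−0.73 to 0.66), and 0 of the 4 had an unadjusted p below 0.05, against 3.92% of all genes. These intervals are wide and do not show that the age effects were alike.

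Ratios of 2 receptor genes within a library largely cancel the scaling of that library and were used to set LSK beside CMPs. The ratios were of values with 1 added, which leaves some dependence on scaling where a value is low, as for Il7r in CMPs, and 31 comparisons were tested by two-sided exact permutation within strata. Cd34 to Kit differed between the strains. The log2 ratio was 0.27, 0.17 and 0.74 in B6-Y and 0.14, 0.08 and 0.93 in B6-O, against 0.15, −0.73 and −0.36 in F1-P and −0.40, −1.05 and −0.39 in F1-L. The ratio was above 0 in all C57BL/6 libraries and below 0 in 5 of the 6 NZBW/F1 libraries. The ratio was 1.81-fold lower in NZBW/F1 (log2 difference −0.85, exact permutation p = 0.005, adjusted p = 0.0387), the smallest p that these groups can give.
Il7r to Flt3 separated the strains in every library. The log2 ratio ran from −1.93 to −1.14 in the 6 NZBW/F1 LSK libraries and from −3.33 to −2.35 in the 6 C57BL/6 libraries. The ratio was 2.59-fold higher in NZBW/F1 (log2 difference 1.37, exact permutation p = 0.005, adjusted p = 0.0387). Between older and younger mice the log2 difference of this ratio was 0.13, with overlapping libraries (exact permutation p = 0.53, adjusted p = 0.587). This does not show that age had no effect on it.
Flt3 to Kit had a lower mean in older LSK of both strains. In C57BL/6 LSK it was 0.57, 0.83 and 0.79 in B6-Y and −0.05, −0.38 and 0.39 in B6-O, with no overlap. In NZBW/F1 it was 1.22, 0.09 and −0.15 in F1-P and −0.30, −1.69 and −0.13 in F1-L, where the groups overlapped by a single library. Over both strains the ratio was 1.89-fold lower in older mice (log2 difference −0.92, exact permutation p = 0.01), which missed the threshold after adjustment (adjusted p = 0.062). Il7r to Kit was 1.73-fold lower in older mice (exact permutation p = 0.05, adjusted p = 0.194).

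**Figure D3:**
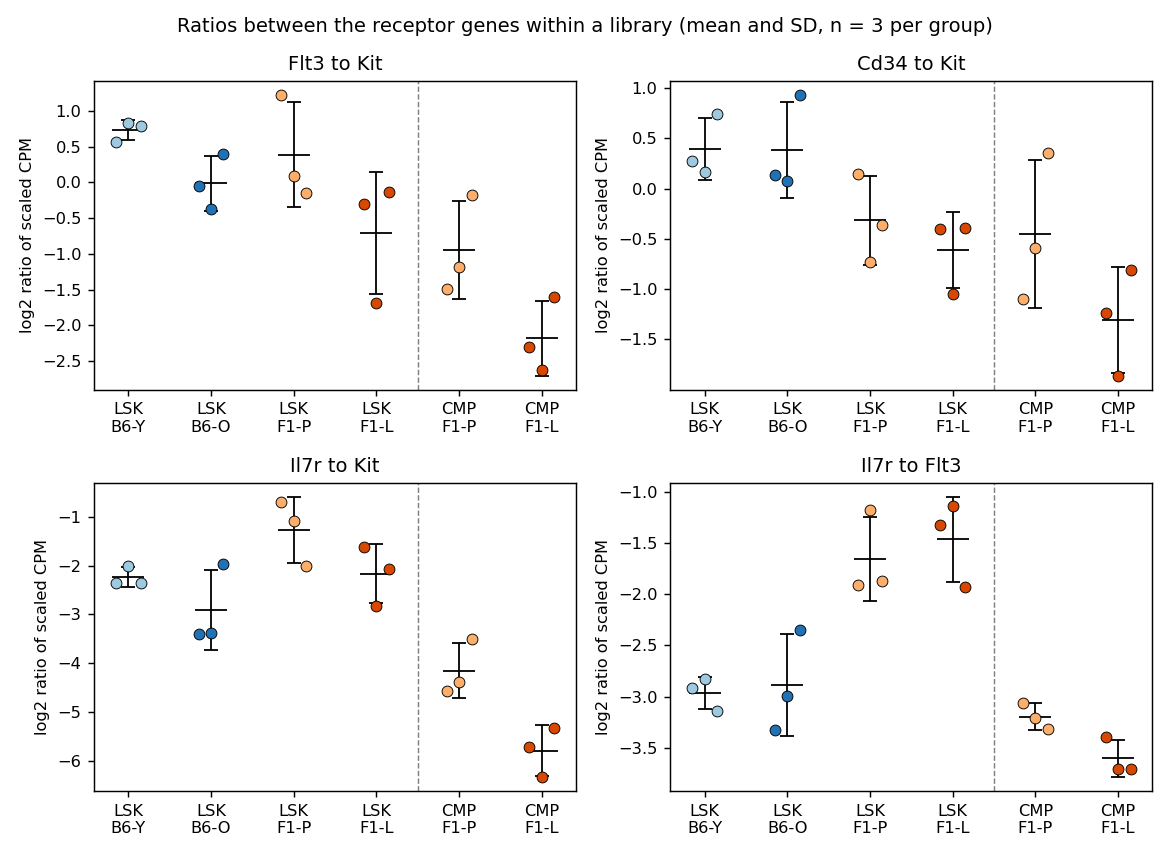
Log2 ratios of scaled CPM between 2 receptor genes within each library (points) for the 4 LSK and 2 CMP groups, with the mean and SD of each group (n = 3). Il7r to Flt3 lies at −1.93 to −1.14 in NZBW/F1 LSK, above all C57BL/6 LSK and all CMP libraries, and the remaining panels show Flt3, Cd34 and Il7r to Kit.

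CMPs of NZBW/F1 mice held little Il7r. It was at 16.7, 21.7 and 38.7 in F1-P CMPs and at 11.8, 5.94 and 12.4 in F1-L, from 115 to 987 reads per library. All F1-L libraries were below all F1-P libraries. The log2 difference of −1.25 (SE 0.382, 95% interval −2.17 to −0.32) was not called in limma (adjusted p = 0.422) and was called in DESeq2 (adjusted p = 0.0426). Flt3 was at 147.2, 208.6 and 396.4 in F1-P and 133.9, 89.9 and 175.2 in F1-L, with overlapping groups and a log2 difference of −0.84 (SE 0.402, limma's adjusted p = 0.555).
Kit differed in the other direction. It was at 416.5, 475.1 and 450.2 in F1-P CMPs and at 667.9, 562.7 and 536.0 in F1-L, so all F1-L libraries were higher, with a log2 difference of 0.39 (SE 0.113, limma's adjusted p = 0.404). Cd34, on which these cells were gated, was at 193.8, 316.3 and 572.4 in F1-P and 281.9, 153.9 and 305.5 in F1-L, and its difference of −0.47 (SE 0.438, adjusted p = 0.735) lay within the spread of the libraries. limma and the quasi-likelihood test called 0 of the 4 genes against 0.00774% of 12926 genes in each, the likelihood ratio test 0 against 2.38% and DESeq2 1 against 2.72%. Kit and Il7r had an unadjusted p below 0.05, as did 9.80% of the genes, and did not overlap between the groups, as 16.0% did not.

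Within NZBW/F1 mice Il7r to Kit was 9.55-fold higher in LSK than in CMPs (log2 ratio −1.72 ± 0.76 against −4.97 ± 1.02, SD, n = 6 each), and the populations did not overlap (exact permutation p = 0.005, adjusted p = 0.0387). Il7r to Flt3, a pair outside both gates, was 3.59-fold higher in LSK (−1.56 ± 0.38 against −3.40 ± 0.26, exact permutation p = 0.005, adjusted p = 0.0387). Flt3 to Kit was 2.66-fold higher in LSK with overlapping libraries (exact permutation p = 0.015, adjusted p = 0.0775). Kit was gated in both populations, so ratios to it carry the gate. Between F1-L and F1-P CMPs, Il7r to Kit was 3.11-fold lower and Flt3 to Kit 2.35-fold lower in F1-L with no overlap (each exact permutation p = 0.1, the smallest that 3 against 3 libraries can give, adjusted p = 0.194). Il7r to Flt3 was 1.33-fold lower in F1-L CMPs, also with no overlap (−3.71 to −3.39 against −3.32 to −3.06) and with the same exact permutation p = 0.1 and adjusted p = 0.194.

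Levels of the 4 genes were compared after division by exonic length, taken over all annotated exons of a gene. The length of the transcripts expressed was not determined, so the order of the genes per kb may depend on the annotation. In B6-Y LSK the scaled CPM per kb was 120.1 ± 5.32 (SD, n = 3) for Flt3, 81.9 (63.3 to 103.0 over the libraries) for Cd34, 50.1 ± 3.96 for Kit and 20.2 ± 1.60 for Il7r, in this order in each library. In F1-L LSK the levels per kb drew together, with Kit at 43.7 ± 5.76, Flt3 at 41.3 ± 17.7 and Cd34 at 35.0 ± 5.55, which overlap, and Il7r at 18.8 ± 5.22 below them. In F1-P LSK the levels per kb were Flt3 at 66.6 ± 26.5, Kit at 34.0 ± 6.95, Cd34 at 34.0 ± 9.46 and Il7r at 27.3 ± 7.23, so that Flt3 lay between its levels in B6-Y and F1-L, Kit and Cd34 below both and Il7r above both. In CMPs Kit was first in 5 of the 6 libraries, Cd34 being first in F1-P replicate 3, and Il7r was last in all 6, at 2.16 ± 0.77 per kb in F1-L. Among all listed genes ranked per kb, Il7r lay at percentile 80.1 to 93.0 of LSK libraries and 42.8 to 66.4 of CMP libraries, and Kit at percentile 91.4 to 98.1 and 93.9 to 97.3.
By mean scaled CPM, the order of LSK groups for Cd34 was B6-O, B6-Y, F1-L and F1-P, and of its neighbours B6-Y and F1-L did not overlap while the others did. For Flt3 it was B6-Y, B6-O, F1-P and F1-L, with no overlap between B6-Y and B6-O. For Kit (B6-O, B6-Y, F1-L, F1-P) and Il7r (F1-P, B6-Y, F1-L, B6-O) every pair of neighbours overlapped.

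The genes whose pattern over the 12 LSK libraries was most like each receptor gene were sought among 11110 genes with a mean of at least 5, by the root mean square difference of the centred log2(scaled CPM + 1) values. Nearest to Cd34 were Gcnt2 (0.226), Egln3 (0.238) and Psrc1 (0.239), where Cd34 itself varied by 0.716 around its mean. Nearest to Flt3 were Ephb2 (0.232), Sstr2 (0.258) and Satb1 (0.28), against 0.71 for Flt3. Nearest to Kit were Ocrl (0.148), Heg1 (0.153) and Zfp109 (0.156), against 0.413, and nearest to Il7r were Galnt3 (0.193), Cd6 (0.204) and Pkd1l3 (0.209), against 0.407. Gcnt2, nearest to Cd34, had a mean of 237.0 in C57BL/6 and 103.0 in NZBW/F1 LSK.

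The partners of the receptors were followed from lists of ligands and co-receptors, signalling genes, inhibitors, other surface genes of stem and progenitor sorts, transcription factors and lymphoid priming genes. Of 9 ligands and co-receptors, 7 were tested between the strains over both ages, with 1 called higher and 2 lower, against 19.0% of all genes called in either direction, and a median log2 fold change of −0.08 against −0.03 for all genes. Flt3l, the ligand of FLT3, was at 27.9 ± 4.51 (SD, n = 6) in NZBW/F1 and 18.4 ± 5.20 in C57BL/6 LSK and was called higher (log2 fold change 0.60, adjusted p = 0.022 in limma), opposite in sign to its receptor. With 1 library left out Flt3l ran from 0.51, which is under 1.5-fold, to 0.72. At the separate ages it was not called (limma's adjusted p = 0.0788 at the younger and 0.224 at the older). Crlf2, whose product pairs with the interleukin-7 receptor alpha chain to bind TSLP, was called lower at 47.3 ± 6.38 against 117.6 ± 23.1 (log2 fold change −1.29, adjusted p = 1.97e-05). Il2rg, the common gamma chain that pairs with IL7R, was at 62.5 ± 15.7 and 57.1 ± 13.6 (log2 fold change 0.12, adjusted p = 0.571). Crlf2 was called lower also at each age.
Of 12 signalling genes below the receptors, Gab2, an adaptor that KIT and FLT3 use, was called lower over both ages (log2 fold change −1.02, adjusted p = 0.000354) and in F1-P against B6-Y, and the median of the 12 was 0.09. Of 9 inhibitors, Socs1 (1.04, adjusted p = 0.000636) and Socs2 (1.64, adjusted p = 0.000476), feedback inhibitors of cytokine receptors, were called higher in NZBW/F1 over both ages and at each age, with a median of 0.06 for the 9. These 1 of 12 and 2 of 9 stand against the same 19.0% of all genes.
Of 15 transcription factors of stem and progenitor cells, 15 were lower in NZBW/F1 over both ages, 6 of them called (Hlf, Meis1, Gata2, Lmo2, Erg and Etv6) against 7.05% of all genes called lower, with a median of −0.50 against −0.03 for all genes. Cebpa, a factor of myeloid differentiation, had opposite signs at the 2 ages, with a log2 fold change of −0.99 (adjusted p = 0.0306 in limma) at the younger and 0.70 (adjusted p = 0.0563) at the older, and no overlap at either. Hlf was at 132.9 ± 24.9 against 288.6 ± 73.3 (log2 fold change −1.10, adjusted p = 0.000395). Hlf, Meis1 and Lmo2 were called at each age, and Gata2, Etv6, Spi1 and Cebpa at the younger age. Of 14 other surface genes, Ly6a and Thy1 were called higher and Itga2b, Cd27 and Eng lower over both ages, again against 19.0% of all genes. By age, Ly6a and Itga2b were called at both, Thy1 and Eng at the younger and Cd27 at the older. Itga2b had a log2 fold change of −1.75 (adjusted p = 2.42e-05). The log2 differences of Cd34, Flt3 and Kit had the sign of all 15 transcription factors.
Of 18 lymphoid priming genes, 5 were called higher (Ccr9, Ly6d, Foxo1, Blnk and Ets1) and 2 lower (Dntt and Satb1) in NZBW/F1 over both ages, against 19.0% of all genes called in either direction, with a median of 0.11. Dntt, which encodes the polymerase that adds bases at antigen receptor joints, was at 461.3 ± 458.5 and 834.5 ± 196.9 (log2 fold change −1.23, adjusted p = 0.0105), and Foxo1, a factor that drives Il7r in lymphoid cells, at 80.8 ± 26.3 and 42.2 ± 19.8 (0.97, adjusted p = 0.000569). Ccr9, Ly6d and Ets1 were called higher and Bcl11a lower at the younger age, and Foxo1 and Blnk higher and Dntt lower at the older.

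With age the lymphoid priming genes and the transcription factors had mostly opposite signs, and no test compared the lists. Of the 18 lymphoid priming genes, 18 were lower in older mice over both strains and 6 were called (Foxo1, Ebf1, Igll1, Vpreb1, Blnk and Lef1) against 1.66% of all genes called in either direction, with a median log2 fold change of −0.96 against 0.01 for all genes. The median was −0.92 from F1-P to F1-L, with 17 of the 18 lower and 0 called in limma, led by Blnk (−1.11, adjusted p = 0.172) and Ly6d (−0.87, adjusted p = 0.172). It was −0.96 from B6-Y to B6-O, with 18 of 18 lower and 0 called, led by Igll1 (−3.25, adjusted p = 0.14) and Vpreb1 (−2.84, adjusted p = 0.163), chains of the pre-B cell receptor. In the likelihood ratio test of edgeR 6 of the 18 were called, all lower, in each strain, against 1.14% of all genes called lower in NZBW/F1 and 0.364% in C57BL/6. Flt3 and Il7r had the sign of this list in both strains, with differences smaller than its median. Ebf1, Igll1, Vpreb1 and Blnk of this list are genes of the B lineage, and the summed B cell markers were lower in older mice of both strains with no overlap. The part of B lineage cells in this list's values was not tested.
Of the 15 transcription factors 14 were higher in older mice over both strains, and Gata2 (1.11, adjusted p = 0.027), Tal1 (0.72, adjusted p = 0.0435) and Cebpa (0.89, adjusted p = 0.0283) were called, against the same 1.66% of all genes. Summed neutrophil markers were also higher in F1-L (1876 to 11610) than in F1-P LSK (285.2 to 1213). The part of neutrophils in this list's values was not tested. For Cebpa the log2 fold change with age was 1.74 in NZBW/F1 and 0.05 in C57BL/6, and the difference of 1.69 between them had an adjusted p of 0.533 in limma and 0.00904 in the likelihood ratio test of edgeR. Of the 14 other surface genes, Esam (1.07, adjusted p = 0.0371) and Itga2b (1.38, adjusted p = 0.00863) were called higher. In the separate strains the smallest p-values belonged to Cebpa, Gata2, Itga2b and Tek in NZBW/F1 and to Gata2, Mecom, Esam and Itga2b in C57BL/6, all higher in older mice and 0 called in limma. The likelihood ratio test of edgeR called 4 of the 15 transcription factors (Gata2, Tal1, Spi1 and Cebpa) and 4 of the 14 surface genes (Tek, Esam, Itga2b and Vcam1) higher in NZBW/F1, against 4.58% of all genes in either direction, and 0 of the 15 and 1 of the 14 (Esam) in C57BL/6, against 0.814%. In the interaction, the likelihood ratio test called 1 of the 15 transcription factors, Cebpa, and 0 of the 14 surface genes, against 0.0663% of all genes. limma called 0% of all genes there. Apart from Cebpa in the likelihood ratio test, these counts do not show that the strains differed. Kit had their sign with a smaller difference. Among the ligands, co-receptors, signalling genes and inhibitors, lists of the sizes given above, limma called 0 with age, against 1.66% of all genes over both strains. In the separate strains the likelihood ratio test called 1, Socs2, lower in NZBW/F1 (adjusted p = 0.027, against 4.58% of all genes) and 0 in C57BL/6 (0.814%). Over both strains this test gave an adjusted p of 0.000921 for Socs2, lower in older mice. It gave 0.00331 for Podxl, 0.00193 for Tslp and 0.026 for Il7, all higher, where 4.28% of all genes were called. The smallest p-values of these lists belonged in NZBW/F1 to Il2rg (−0.56), Podxl (1.32), Gab2 (0.64), Stat5a (0.35), Socs2 (−1.36) and Socs3 (0.65). In C57BL/6 they belonged to Tslp (0.69), Podxl (1.08), Stat5a (0.25), Pik3cd (−0.23), Socs2 (−0.81) and Sh2b3 (−0.54), all as log2 fold changes.
In CMPs the lymphoid priming genes were lower in F1-L too, 16 of 18 with a median of −1.16 against 0.04, 13 with an unadjusted p below 0.05 and 0 called in limma, while the likelihood ratio test of edgeR called 9 lower, against 2.12% of all genes. Blnk (−1.19, adjusted p = 0.283) and Ebf1 (−2.07, adjusted p = 0.283) had the smallest p-values. Gata2 (1.10), Mecom (0.92), Tek (1.32) and Esam (1.37) led the transcription factors and surface genes, Podxl (1.45) and Il2rg (−0.45) the ligands and co-receptors, Stat5a (0.44) and Stat5b (0.15) the signalling genes, and Socs2 (−0.82) and Socs3 (−0.96) the inhibitors, with 0 called in limma. The likelihood ratio test of edgeR called Gata2 (adjusted p = 0.000194) and Tek (adjusted p = 0.0105) higher among these 5 lists, against 2.38% of all genes in either direction.

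**Figure D4:**
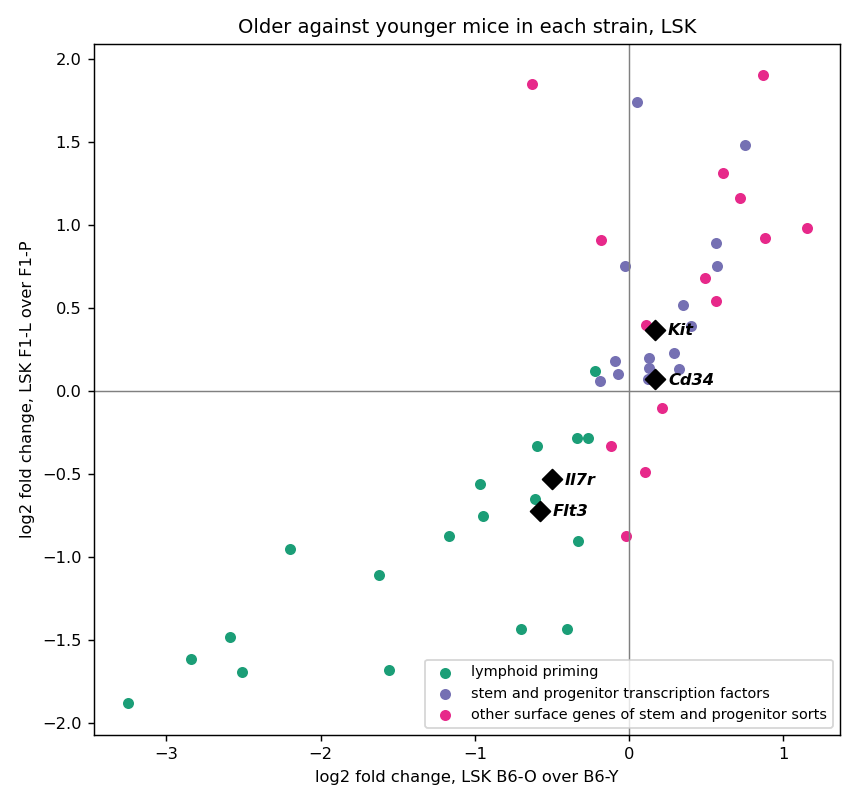
Log2 fold change of older over younger mice in C57BL/6 LSK (horizontal, B6-O over B6-Y) and NZBW/F1 LSK (vertical, F1-L over F1-P) for 3 gene lists (circles) and the 4 receptor genes (diamonds). Flt3 and Il7r lie with the lymphoid priming genes below 0 on both axes, and Kit and Cd34 just above 0 on both.

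Markers of other cell types moved with some of these differences. Plasma cell markers, 7 of 7 listed, summed to 9587 to 37480 scaled CPM in NZBW/F1 LSK and 249.3 to 2502 in C57BL/6, with Jchain the most abundant per kb at up to 33320 scaled CPM, and to 64.9 to 306.8 in CMPs. Immunoglobulin genes took 16.8% to 36.6% of the reads of NZBW/F1 LSK and 0.301% to 4.76% in C57BL/6. Relative to Kit in the same library, Cd34 was lower in NZBW/F1 by the 1.81-fold given above and Flt3 by 1.43-fold (exact permutation p = 0.135, adjusted p = 0.246). For Flt3 to Kit this log2 difference of −0.52 ran from −0.73 to −0.27 with 1 library left out. The part of the plasma cell and immunoglobulin reads in the strain differences was not tested.
Within NZBW/F1 LSK, plasma cell markers summed to 14500 to 37480 in F1-P and 9587 to 12840 in F1-L, and neutrophil markers to 285.2 to 1213 in F1-P and 1876 to 11610 in F1-L, with no overlap in either. Their part in the differences of the receptor genes and of the listed genes from F1-P to F1-L was not tested.
NK cell markers, 6 of 6 listed, summed to 202.4 to 433.5 in NZBW/F1 and 51.4 to 99.8 in C57BL/6 LSK. Nkg7 was the most abundant per kb in each library but F1-P replicate 2, where Ncr1 was. Nkg7 overlapped between the strains, at 33.3 to 75.5 in NZBW/F1 and 33.1 to 70.3 in C57BL/6. Its median was higher in F1-P than in B6-Y (51.9 against 33.3) and lower in F1-L than in B6-O (40.8 against 54.3). Ncr1, an NK cell receptor, was at 43.6 to 123.7 against 2.75 to 6.79. Klrb1c, Gzma, Eomes and Klrd1 were also higher in NZBW/F1 with no overlap. Monocyte and macrophage markers, 7 of 7 listed, summed to 394.4 to 781.5 and 56.9 to 220.3, with Ly6c2 the most abundant per kb. Ly6c2 made up most of the F1-P sums, with a median of 604.8 against 64.2 in B6-Y, and Ccr2 had a higher median too, 63.5 against 26.3. The other 5 markers of the list had lower medians in F1-P than in B6-Y, among them Csf1r at 19.6 against 51.9, Ms4a6c at 4.73 against 16.7 and Adgre1 at 0.817 against 1.51. At the older age these 5 had higher medians in F1-L than in B6-O, with Csf1r at 96.4 against 19.8, Ms4a6c at 26.6 against 9.85 and Adgre1 at 8.40 against 1.77. The part of these cells in the strain differences of Cd34 and Flt3 was not tested.
Il7r is also carried by T cells, B cell precursors and innate lymphoid cells. T cell markers, 7 of 7 listed with Lck the most abundant per kb, summed to 77.8 to 200.2 in NZBW/F1 and 49.7 to 94.6 in C57BL/6 LSK, with Cd3e, which the T cell receptor needs, at 3.70 to 14.2 and 0.62 to 4.02. Markers of type 2 innate lymphoid cells, 7 of 7 listed, summed to 140.7 to 351.4 and 66.6 to 213.6, with Gata3 or Icos the most abundant per kb and Il13 at most 1.17. B cell markers, 6 of 6 listed with Cd79a or Cd79b the most abundant per kb, summed to 123.4 to 218.0 in B6-Y and 39.6 to 112.5 in B6-O, and to 208.6 to 341.2 in F1-P and 147.3 to 175.0 in F1-L. They were thus lower in older mice of both strains, as were the means of Flt3 and Il7r, and the part of these cells in either gene was not tested. Against NZBW/F1 LSK, CMPs had lower sums for T cell markers (5.83 to 34.5) and for markers of type 2 innate lymphoid cells (56.0 to 98.9, with Il1rl1 the most abundant per kb), as they did for the ratios of Il7r to Kit and to Flt3, and the part of these cells in those ratios was not tested.
B6-O replicate 3, the library with the lowest Kit of its group, had neutrophil markers, 8 of 8 listed, at 10220 against 801.0 and 1639 in the other B6-O libraries, and plasma cell markers at 2502 against 249.3 and 391.9. S100a9 was the most abundant neutrophil marker per kb. Neutrophil markers also reached 5191 in B6-Y replicate 2 and 11610 in F1-L replicate 1, each the library of its group with the lowest Kit. In LSK of F1-P the order was the reverse, since replicate 3, with the most neutrophil markers (1213), had the highest Kit and replicate 1, with the least (285.2), the lowest. In F1-P CMPs the library with the least neutrophil markers (292.7) also had the lowest Kit, and in F1-L CMPs the library with the most (413.6) had the lowest Kit. F1-P replicate 3 held erythroid markers at 2794, with Hbb-bs the most abundant per kb, against 46.1 and 48.1 in the other F1-P libraries.
In CMPs, F1-P replicates 2 and 3 had the most Il7r, Flt3 and Cd34. The same libraries had neutrophil markers at 6041 and 7955 against 413.6 or less in the other 4, and B cell markers at 121.4 and 151.5 against 27.5 or less. The sort was negative for CD11b and Gr-1, carried by neutrophils, and for B220, carried by B cells. The part of these cells in the CMP values was not tested. Of 7 progenitor markers, 7 were at 1 or above in every library.

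**Figure D5:**
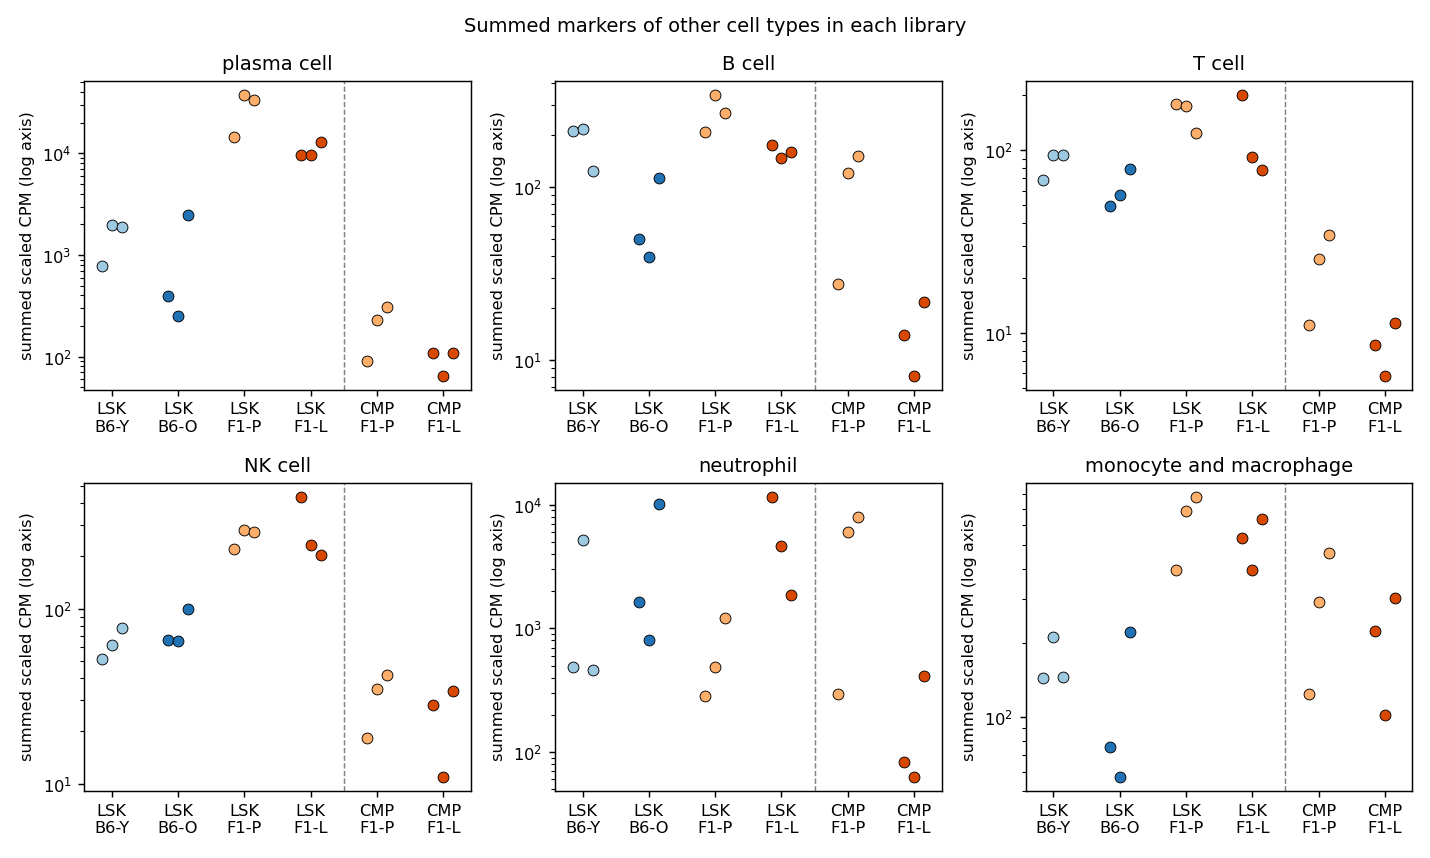
Summed scaled CPM (log axes) of the markers of 6 other cell types in each library (points) of the LSK and CMP groups; the dashed line parts the separately scaled tables. Plasma cell markers lie between 9587 and 37480 in NZBW/F1 LSK and between 249.3 and 2502 in C57BL/6, and neutrophil markers vary among libraries of the same group.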

How the data were processed

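RNA was sequenced from 12 LSK and 6 CMP samples. The authors mapped the single-end reads of unstranded mRNA libraries to mm10 with STAR 2.6, summed them over genes in HTSeq and normalized them in edgeR. The deposited values are a signal, CPM of a scaled library size, and 100.0% of them were whole multiples of 1 read within 0.02 of a read, so that reads could be recovered for the count tests. Plain CPM had been assumed in the design. Totals were 23772252 to 28493747 reads per LSK library and 20001328 to 24761060 per CMP library, and 115 to 23095 reads lay behind the value of a receptor gene. Gene symbols were matched to GENCODE M21 (GRCm38) for 19770 LSK and 18421 CMP genes. Ages came from the study's methods. The labels do not say that replicates are separate mice, so the p-values measure the spread between these samples, which may be technical. Replicates of a group differed by more than sampling noise (smallest chi-square 10.9 per degree of freedom).

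A gene entered a comparison if its value was 1 or more in 3 or more of the samples. limma 3.58.1 (R 4.3.3, with a trend) was run on log2(value + 1), a scale that understates the changes of low genes, with Benjamini-Hochberg adjustment over all genes entered. Calls needed an adjusted p of 0.05 or less and a change of more than 1.5-fold. Pairwise comparisons used the samples of their groups. The age, strain and interaction contrasts used all 12 LSK samples. Ratios were tested by two-sided exact permutation within strata (Python 3.11.15, numpy 2.4.6), with adjustment over 31 tests. The ratio of Cd34 to Kit was not tested between LSK and CMPs, since both genes are in the gates. Alternatives were pseudocounts of 0.5 and 0.1, other filters and scalings, edgeR 4.0.16, DESeq2 1.42.0, a replicate block, all LSK samples in each pairwise fit and the omission of each library. The procedures were tested on simulated data. The receptor genes and the lists were chosen with earlier results of these data known. Named are the receptor genes, list genes that were called, the 2 genes of each list with the smallest p between F1-L and F1-P LSK, B6-O and B6-Y LSK, and F1-L and F1-P CMPs, Ly6a, marker genes, and the 3 genes most like each receptor gene. Protein sequences were not analysed here. Some list and marker genes that enter the counts and sums are not reported here by name.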

Additional observations from a re-analysis of the deposited data

How the results depend on the processing

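The settings that kept every library left the sign of each receptor gene's difference unchanged in all 8 comparisons. Between F1-P and B6-Y LSK, the 2 calls became 1, Cd34, with no filter, with a mean of 5 or more, with TMM without immunoglobulin genes, in edgeR's quasi-likelihood test and with all 12 LSK samples fitted together, and 0 to 2 when a library was left out. Cd34 lost its call there without B6-Y replicate 1 (adjusted p = 0.0504). Between F1-L and B6-O the 1 call became 2 in DESeq2, which added Flt3, and 1 to 2 when a library was left out, with Kit added without B6-O replicate 3. Over both ages it was 2 to 3, again with Kit added without that library. In CMPs the count rose from 0 to 1 in DESeq2, which added Il7r. The causes were not tested.

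With each library left out in turn, the log2 difference ran from −0.19 to 0.21 for Cd34 from F1-P to F1-L, from −0.02 to 0.55 for Kit and from −0.01 to 0.34 for Cd34 from B6-Y to B6-O, and from −0.01 to 0.21 for Cd34 between ages over both strains. The difference between the age effects ran from −0.18 to 0.39 for Kit, −0.43 to 0.25 for Flt3, −0.35 to 0.08 for Cd34 and −0.25 to 0.20 for Il7r. None of these has a settled sign.

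Among the ratios, leaving out a library gave a log2 difference of −0.97 to −0.72 for Cd34 to Kit and 1.25 to 1.51 for Il7r to Flt3 between strains, 3.11 to 3.44 for Il7r to Kit, 1.73 to 1.96 for Il7r to Flt3 and 1.2 to 1.66 for Flt3 to Kit between LSK and CMPs, and −1.06 to −0.67 for Flt3 to Kit with age. With a library left out, where fewer arrangements exist, some of these crossed an adjusted p of 0.05. Between strains, Cd34 to Kit (adjusted p = 0.0775) and Il7r to Flt3 (0.0517 to 0.062) missed it without F1-P replicate 2 or any B6-Y replicate, and Il7r to Flt3 also without F1-L replicate 2. Between LSK and CMPs, Il7r to Kit and Il7r to Flt3 missed it without LSK F1-P replicate 2 (0.0517 each), while Flt3 to Kit met it without LSK F1-L replicate 2 (0.0387). With age, Flt3 to Kit met it without F1-L replicate 3 (0.031). From B6-Y to B6-O, Cd34 to Kit ran from −0.28 to 0.17 and Il7r to Flt3 from −0.20 to 0.29, and over both strains Il7r to Flt3 ran from −0.00 to 0.25.

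Samples share replicate numbers, but same-numbered samples did not all deviate together (correlations of −0.45 to 0.62), so the numbers serve as names. With the replicate block the receptor genes called stayed at 2 between the strains over both ages, 2 between F1-P and B6-Y, 1 between F1-L and B6-O and 0 elsewhere.

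The number of all genes called depended more on the test. From F1-P to F1-L LSK it went from 4 to 657 in the likelihood ratio test, 734 in DESeq2, 26 with all LSK samples, 2 with median-of-ratios scaling and 0 with the block. From B6-Y to B6-O it went from 0 to 114, 207 and 13 in the first 3 of these and 1 with TMM without immunoglobulin genes. In CMPs it went from 1 to 308 and 351 in the first 2 of these and to 0 with the block or a mean of 5 or more. Between ages it went from 251 to 646 and 662, and to 142 with a mean of 5 or more, a filter that also took it from 1667 to 978 between F1-L and B6-O and from 2869 to 1878 between strains. The interaction had 0, against 10 in the likelihood ratio test and 29 in DESeq2. Without one library, the counts were 0 to 25 from F1-P to F1-L, 0 to 48 from B6-Y to B6-O (48 without B6-O replicate 3), 927 to 2229 between F1-P and B6-Y, 448 to 2285 between F1-L and B6-O, 22 to 346 between ages, 2421 to 3120 between strains, 0 to 1 for the interaction and 0 to 434 in CMPs (434 without F1-P replicate 1). The median of all genes stayed within 0.1 of 0 in every setting. Precision was set by the spread of 3 samples per group more than by depth, since the lowest receptor value rested on 115 reads.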
